A study of Mus musculus with 12 samples.

Results

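In all, 10 genes of transforming growth factor beta (TGF-beta) and bone morphogenetic protein (BMP) signalling were described in mouse kidney: the ligand genes Tgfb1, Inhbb and Bmp7, the inhibitory Smads Smad6 and Smad7, the corepressors Skil and Tgif1, and the Id genes Id1, Id2 and Id3. The genes were selected by name, as those to which the platform annotation assigns probe sets of their own. Earlier results of these data were known at that choice, and the 10 are among the 14322 genes tested. They have 18 probe sets between them, and all 18 passed the filter on low signals. Whole kidneys of male mice aged 8 weeks were measured on 12 arrays, 3 per group. The TLR4 null animals were C57BL/10ScNJ mice (TLR4-/-), a substrain without Toll-like receptor 4, an innate immune receptor for bacterial lipopolysaccharide. The wild-type animals were C57BL/10 mice. In each genotype the ischemic group had the left renal pedicle clamped for 23 min and the kidney was collected at 4 h of reperfusion, while in the sham group the clip was only laid under the pedicle. All mice, shams included, had had the right kidney removed and were given isofluorane and buprenorphine. The genotypes are purchased substrains, so loss of TLR4 and other substrain differences cannot be told apart.

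TGF-beta family ligands are dimers that bind paired serine/threonine kinase receptors at the cell surface. TGF-beta and activin receptors phosphorylate Smad2 and Smad3, BMP receptors phosphorylate Smad1, Smad5 and Smad9, and both sets join Smad4 to enter the nucleus. Smad6 and Smad7 block this relay at the receptor, and Skil (SnoN) and Tgif1 recruit histone deacetylases to Smad complexes on DNA. Id proteins have a helix-loop-helix but no DNA-binding part, so they hold E proteins away from DNA, and Id1, Id2 and Id3 are classical targets of BMP signalling. In the kidney, TGF-beta is best known for driving fibrosis, and Bmp7 for kidney development and for opposing injury.

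The measurements are array signals, and each value below is the MAS5 signal of the probe set with the highest mean for its gene. Differences are of log2(signal + 15), given with their standard error (SE) from limma. It rests on a spread shared over the 4 groups of 3 arrays, not on the compared arrays alone. The SE of an ischemia difference is therefore the same in both genotypes, and leaving out an array of one genotype can move a call in the other. A gene was called when its adjusted p in limma was under 0.05. Adding 15 understates the change of dim genes. The arrays had medians of 61.3 to 77.6, and replicate arrays correlated with r between 0.963 and 0.979 over the genes. The genotype labels were checked on Tlr4, whose probe set 1418162_at gave 1.67, 0.901 and 3.13 in TLR4 null ischemic and 3.38, 1.22 and 1.02 in TLR4 null sham kidneys, against 65.6 to 120.4 on the 6 wild-type arrays. It is the one of the 4 Tlr4 probe sets that differs most, and where they lie relative to the deletion was not examined. The tissue label was checked on 9 segment markers, of which 8 were measured: the summed signal was 48492 to 54642 in TLR4 null ischemic, 54456 to 59585 in TLR4 null sham, 48611 to 57093 in wild-type ischemic and 47668 to 56937 in wild-type sham kidneys. The dimmest of the 8 was the podocyte gene Nphs1 (121.9 to 196.1).

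After ischemia 3 of the 10 genes rose in TLR4 null kidneys and 6 of the 10 rose in wild-type kidneys, and none fell by the test in either genotype. In TLR4 null kidneys they were Tgfb1, Inhbb and Tgif1, where 9.86% of all genes were called higher and 11.7% lower. In wild-type kidneys they were the same 3 with Smad7, Skil and Id2, where 9.17% of all genes were called higher and 10.5% lower. At an unadjusted p under 0.05, 6 genes passed in TLR4 null kidneys, 5 of them higher and 1 (Smad6) lower, beside 33.1% of all genes, and 6 passed in wild-type kidneys, all higher, beside 31.5% of all genes. Ischemic and sham arrays did not overlap for 6 of the 10 genes in TLR4 null kidneys, against 34.0% of all genes, and for 7 of the 10 in wild-type kidneys, against 39.3% of all genes. The median difference over the 10 genes was 0.36 in TLR4 null and 0.50 in wild-type kidneys, beside -0.07 and -0.09 over all genes tested. Because the 10 were chosen with earlier results of these data known, these counts and medians only describe them. Whole kidneys were measured, so a change in the number of cells of a type and a change in RNA per cell cannot be told apart.

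**Figure D1:**
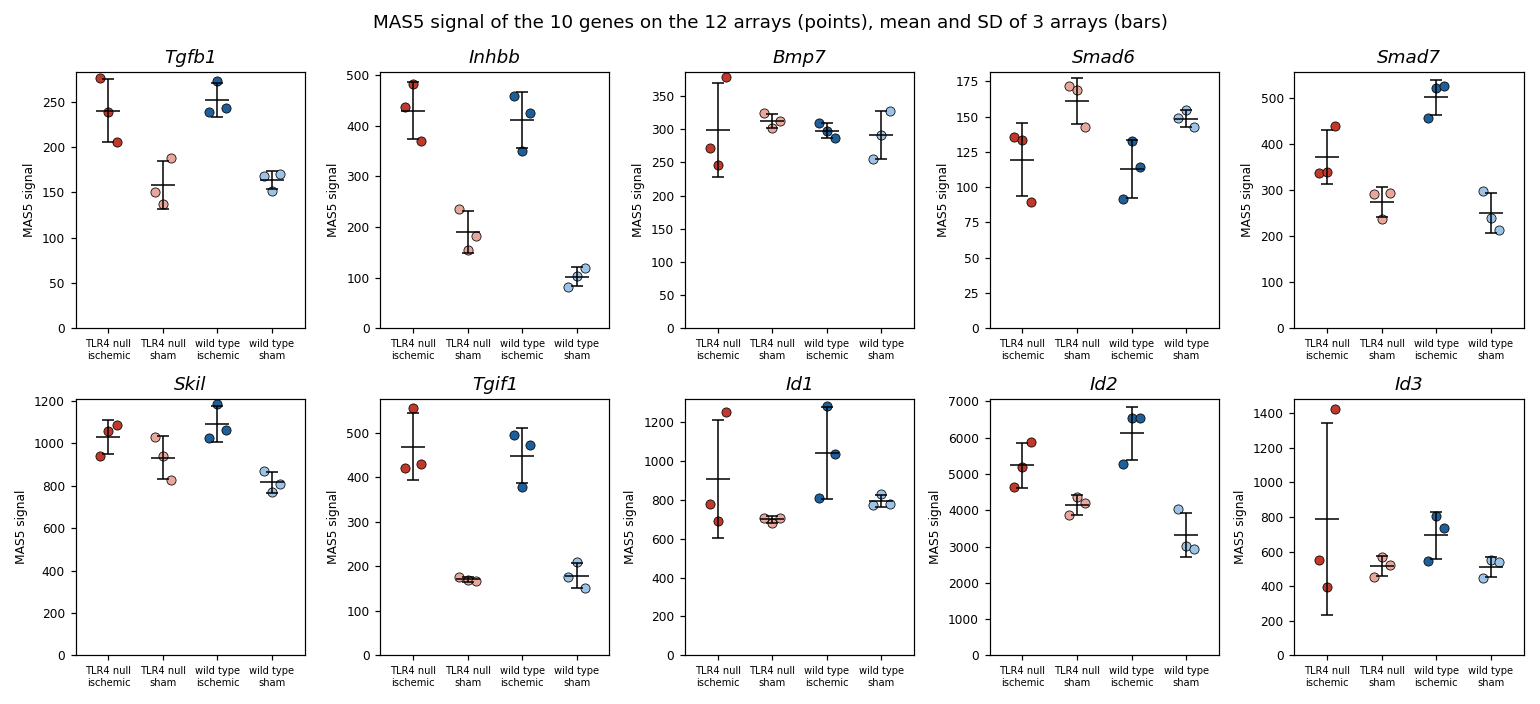
MAS5 signals of the 10 genes on each array (points, linear axis from 0) in TLR4 null ischemic, TLR4 null sham, wild-type ischemic and wild-type sham kidneys, with the mean and SD of 3 arrays. Tgfb1, Inhbb, Smad7, Tgif1 and Id2 are higher on every ischemic array than on any sham array of either genotype, while Bmp7 overlaps throughout.

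Promoters from RefSeq were tabulated for 6 of the 10 genes (Tgfb1, Inhbb, Smad6, Tgif1, Id2 and Id3), as 250 bases before to 50 after the start. The promoters of 4 genes are shown, to set the 2 largest responses (Inhbb and Tgif1) beside the Id genes Id2 and Id3, of which Id2 was called in wild type and Id3 in neither genotype. Tgif1 has 5 tabulated starts, and the one farthest upstream is given. Capitals mark matches, on either strand, to CAGAC (the Smad-binding element), GGCGCC (a GC-rich element bound by BMP Smads), TGANTCA (AP-1), TGACG (the core of cyclic AMP response elements) and CAGCTG (an E box).
Inhbb promoter, GRCm38.p6 chr1:119422199-119422498, minus strand: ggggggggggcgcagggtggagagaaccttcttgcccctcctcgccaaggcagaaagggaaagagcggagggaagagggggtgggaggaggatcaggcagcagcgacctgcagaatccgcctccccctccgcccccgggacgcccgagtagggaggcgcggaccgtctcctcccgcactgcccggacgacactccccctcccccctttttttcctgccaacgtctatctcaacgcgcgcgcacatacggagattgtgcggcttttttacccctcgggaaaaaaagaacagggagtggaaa
Tgif1 promoter, GRCm38.p6 chr17:70853483-70853782, minus strand: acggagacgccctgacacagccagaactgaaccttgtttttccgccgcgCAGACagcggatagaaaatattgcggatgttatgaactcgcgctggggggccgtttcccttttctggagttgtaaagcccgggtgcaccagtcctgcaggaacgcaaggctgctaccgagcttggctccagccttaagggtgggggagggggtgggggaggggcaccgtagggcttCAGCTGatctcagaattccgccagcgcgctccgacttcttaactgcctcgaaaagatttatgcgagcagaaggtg
Id2 promoter, GRCm38.p6 chr12:25096043-25096342, minus strand: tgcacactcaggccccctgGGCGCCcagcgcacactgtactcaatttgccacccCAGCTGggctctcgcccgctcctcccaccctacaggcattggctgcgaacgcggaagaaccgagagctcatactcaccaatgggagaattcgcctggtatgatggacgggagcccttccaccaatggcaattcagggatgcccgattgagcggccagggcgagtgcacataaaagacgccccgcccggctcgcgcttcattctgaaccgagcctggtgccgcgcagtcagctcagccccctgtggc
Id3 promoter, GRCm38.p6 chr4:136143572-136143871, plus strand: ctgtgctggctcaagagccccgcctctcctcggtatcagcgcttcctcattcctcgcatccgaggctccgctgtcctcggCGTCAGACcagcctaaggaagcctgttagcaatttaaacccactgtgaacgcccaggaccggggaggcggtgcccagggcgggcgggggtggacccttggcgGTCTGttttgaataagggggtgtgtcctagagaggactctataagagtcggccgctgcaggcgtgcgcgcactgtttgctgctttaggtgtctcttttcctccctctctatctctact

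The windows of Inhbb, Tgfb1 and Smad6 held none of these letters on either strand. Counted from the start, the Tgif1 window held CAGAC at -201 and CAGCTG at -25, and of its other 4 tabulated starts 2 held both motifs and 2 held neither. The Id2 window held GGCGCC at -231 and CAGCTG at -196, and the Id3 window held CAGAC at 2 places, at one of which it overlaps a TGACG on the other strand. Of 32851 tabulated mouse promoters of this length, 49.6% held CAGAC, 20.8% TGACG, 16.3% CAGCTG, 11.9% GGCGCC and 7.81% TGANTCA. A match is only a description of these letters.

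Of the ligand genes, Inhbb and Tgfb1 rose in both genotypes and Bmp7 was called in neither. Inhbb encodes the inhibin beta B subunit, which forms activin B as a dimer. Inhbb (probe set 1426858_at) gave 438, 482 and 370.2 in TLR4 null ischemic kidneys, against 235, 154 and 181 in TLR4 null sham kidneys. It gave 458, 351 and 425 in wild-type ischemic kidneys, against 81.5, 104 and 119 in wild-type sham kidneys. The ischemic and sham arrays did not overlap in either genotype, and the ischemic arrays of the genotypes overlapped each other. The difference was 1.13 ± 0.17 in TLR4 null kidneys (2.19-fold, limma adjusted p = 0.000243) and 1.88 ± 0.17 in wild-type kidneys (3.67-fold, adjusted p = 2.29e-06). By mean signal the order was TLR4 null ischemic (429.8 ± 56.2, SD, n = 3), wild-type ischemic (411 ± 55.0), TLR4 null sham (189.9 ± 41.2) and wild-type sham (101 ± 18.8). The first pair of neighbours overlapped, and the other neighbours did not. The second Inhbb probe set was dim, with 133, 129 and 190.1 in TLR4 null ischemic against 109, 107 and 26.6 in TLR4 null sham kidneys, and 88.8, 102 and 186 in wild-type ischemic against 26.2, 25.7 and 152 in wild-type sham kidneys. It had the same sign but did not pass (adjusted p = 0.239 in TLR4 null and 0.189 in wild type, in the fit of all probe sets).

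Tgfb1 encodes TGF-beta 1, the family's founding ligand, which is secreted in a latent form. Tgfb1 (probe set 1420653_at) gave 276, 238 and 206 in TLR4 null ischemic kidneys, against 149.9, 137 and 187 in TLR4 null sham kidneys. It gave 239, 273 and 243 in wild-type ischemic kidneys, against 168, 152 and 170.0 in wild-type sham kidneys. Every ischemic array lay above every sham array of its genotype. The difference was 0.56 ± 0.15 in TLR4 null kidneys (limma adjusted p = 0.0123) and 0.58 ± 0.15 in wild-type kidneys (adjusted p = 0.0109). Averaging its probe sets ended both calls (adjusted p = 0.0856 in TLR4 null and 0.0598 in wild type), and the TLR4 null call was also lost without TLR4 null ischemic replicate 1 (adjusted p = 0.0628) or TLR4 null sham replicate 2 (adjusted p = 0.0546). The second Tgfb1 probe set, 1445360_at, overlapped between surgeries in both genotypes and was not called (adjusted p = 0.576 in TLR4 null and 0.452 in wild type, over all probe sets). Platelets are a rich store of TGF-beta 1, and macrophages make it too, so the markers of both were set beside Tgfb1. Of 4 measured platelet markers (of 5 listed), Pf4 and Ppbp rose in both genotypes, by 0.52 ± 0.14 and 0.95 ± 0.30 in TLR4 null and by 0.64 ± 0.14 and 1.28 ± 0.30 in wild-type kidneys. The other 2, Itga2b and Gp1bb, did not pass, at 0.01 ± 0.16 and -0.26 ± 0.19 in TLR4 null and -0.44 ± 0.16 and -0.52 ± 0.19 in wild-type kidneys. The summed platelet signal overlapped between surgeries, at 705 to 865 in TLR4 null ischemic against 588 to 801 in TLR4 null sham kidneys, and 818 to 930.0 in wild-type ischemic against 671 to 841 in wild-type sham kidneys. Of 6 measured macrophage markers (of 7), 2 rose and 2 fell in TLR4 null kidneys and 2 rose and 1 fell in wild-type kidneys, and their summed signal was 2180.2 to 2269 in TLR4 null ischemic against 2240.2 to 2425 in TLR4 null sham kidneys, and 2402 to 2548 in wild-type ischemic against 2551 to 2673 in wild-type sham kidneys. The part of platelets and macrophages in the Tgfb1 signal was not tested.

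Bmp7 encodes BMP7, made by tubules and podocytes. Bmp7 (probe set 1435479_at) gave 272, 246 and 379 in TLR4 null ischemic kidneys, against 324, 302 and 312 in TLR4 null sham kidneys. It gave 309, 298 and 288 in wild-type ischemic kidneys, against 256, 292 and 328 in wild-type sham kidneys. The groups overlapped in both genotypes. The difference was -0.09 ± 0.14 in TLR4 null kidneys (95% interval -0.39 to 0.22, limma adjusted p = 0.739) and 0.04 ± 0.14 in wild-type kidneys (95% interval -0.27 to 0.34, adjusted p = 0.897). None of the 3 Bmp7 probe sets was called in either genotype.

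The inhibitory Smads had differences of opposite sign, and of the pair Smad7 in wild type passed the test. Smad7 blocks TGF-beta, activin and BMP receptors and is itself induced by TGF-beta. Smad7 (probe set 1423389_at) gave 336, 338 and 439 in TLR4 null ischemic kidneys, against 292, 237 and 293 in TLR4 null sham kidneys. It gave 456, 520.3 and 526 in wild-type ischemic kidneys, against 297, 239 and 214 in wild-type sham kidneys. Surgery groups did not overlap in either genotype, and the 3 TLR4 null ischemic arrays lay below the 3 wild-type ischemic arrays. The difference was 0.41 ± 0.14 in TLR4 null kidneys (1.33-fold, limma adjusted p = 0.0539) and 0.97 ± 0.14 in wild-type kidneys (1.96-fold, adjusted p = 0.000209). The TLR4 null value passed with a filter at the 60th percentile (adjusted p = 0.0414) or without wild-type sham replicate 1 (adjusted p = 0.0435). In the other 23 of 25 alternative settings it stayed uncalled, with adjusted p up to 0.528. The second Smad7 probe set, 1443771_x_at, overlapped between surgeries in both genotypes and was not called (adjusted p = 0.947 in TLR4 null and 0.332 in wild type, over all probe sets). Smad6 acts mainly on BMP signalling and is abundant in endothelium. Smad6 (probe set 1422771_at) gave 136, 133 and 89.4 in TLR4 null ischemic kidneys, against 172, 169 and 142 in TLR4 null sham kidneys. It gave 91.9, 133 and 115 in wild-type ischemic kidneys, against 149, 154 and 142 in wild-type sham kidneys. Its ischemic arrays all lay below the sham arrays of their genotype, yet the difference did not pass, at -0.40 ± 0.18 in TLR4 null kidneys (limma adjusted p = 0.131) and -0.36 ± 0.18 in wild-type kidneys (adjusted p = 0.183). The summed signal of 8 endothelial markers was also lower on every ischemic array than on the sham arrays of its genotype, at 2269.7 to 2711 in TLR4 null ischemic against 3115 to 3336 in TLR4 null sham kidneys, and 2695 to 3298 in wild-type ischemic against 3461 to 4103 in wild-type sham kidneys. Of these 8 markers 4 fell in TLR4 null kidneys (Tek, Flt1, Kdr and Emcn) and 2 in wild-type kidneys (Tek and Flt1), with Tek, the angiopoietin receptor, at -1.28 ± 0.13 in TLR4 null and -1.07 ± 0.13 in wild-type kidneys. The junction genes Cdh5 (0.39 ± 0.18 in TLR4 null and 0.19 ± 0.18 in wild type) and Pecam1 (0.07 ± 0.17 in TLR4 null and -0.05 ± 0.17 in wild type) did not pass, and Cdh5 had the opposite sign. The dimmest endothelial marker, Tie1, gave 27.0 to 109.1 on the 12 arrays. The part of endothelial RNA in the Smad6 value was not tested.

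Both corepressor genes rose in wild type, and Tgif1 rose in TLR4 null kidneys too. Tgif1 is a homeodomain protein that represses Smad2 and Smad3 targets. Tgif1 (probe set 1422286_a_at) gave 421, 556 and 430.1 in TLR4 null ischemic kidneys, against 177, 168 and 167 in TLR4 null sham kidneys. It gave 495, 378 and 473 in wild-type ischemic kidneys, against 176, 209 and 153 in wild-type sham kidneys. The lowest ischemic array gave more than the highest sham array of either genotype. The difference was 1.37 ± 0.15 in TLR4 null kidneys (2.58-fold, limma adjusted p = 1.05e-05) and 1.26 ± 0.15 in wild-type kidneys (2.39-fold, adjusted p = 2.25e-05). Skil encodes SnoN, which binds Smad complexes and holds target genes down until it is degraded. Skil (probe set 1452214_at) gave 938, 1059.7 and 1088 in TLR4 null ischemic kidneys, against 1029, 940.4 and 826 in TLR4 null sham kidneys. It gave 1024, 1187 and 1065 in wild-type ischemic kidneys, against 869.7, 773 and 807 in wild-type sham kidneys. Its groups overlapped in TLR4 null kidneys, with a difference of 0.14 ± 0.10 (limma adjusted p = 0.368), and did not overlap in wild-type kidneys, with a difference of 0.41 ± 0.10 (adjusted p = 0.00904). The dimmer Skil probe set gave 53.9, 54.5 and 141 in TLR4 null ischemic against 74.4, 55.7 and 62.4 in TLR4 null sham kidneys, and 129.9, 98.3 and 133 in wild-type ischemic against 29.8, 41.1 and 36.4 in wild-type sham kidneys. In TLR4 null kidneys a single ischemic array, replicate 3, lay above the sham arrays, and this probe set did not pass there (0.20 ± 0.29, adjusted p = 0.710), while in wild type it rose by 1.41 ± 0.29 (adjusted p = 0.00322).

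Among the Id genes Id2 rose in wild type, and Id1 and Id3 passed in neither genotype. Id2, like its relatives, restrains E proteins and keeps cells from differentiating. Id2 (probe set 1435176_a_at) gave 4644, 5176 and 5881 in TLR4 null ischemic kidneys, against 3855, 4375 and 4208 in TLR4 null sham kidneys. It gave 5266, 6549 and 6533 in wild-type ischemic kidneys, against 4023, 3025 and 2931 in wild-type sham kidneys. Groups did not overlap in either genotype. The difference was 0.33 ± 0.13 in TLR4 null kidneys (1.26-fold, limma adjusted p = 0.0760) and 0.88 ± 0.13 in wild-type kidneys (1.84-fold, adjusted p = 0.000143). The other Id2 probe sets both rose in both genotypes. Probe set 1422537_a_at gave 2750.2, 2897 and 3597 in TLR4 null ischemic against 1571, 1875 and 1515 in TLR4 null sham kidneys, and 2603, 3404 and 3319.8 in wild-type ischemic against 1823, 928 and 953 in wild-type sham kidneys. Its difference was 0.89 ± 0.20 (adjusted p = 0.00682) in TLR4 null and 1.38 ± 0.20 (adjusted p = 0.000235) in wild-type kidneys, and that of 1453596_at was 0.60 ± 0.17 (adjusted p = 0.0260) and 0.56 ± 0.17 (adjusted p = 0.0371). With the mean of the 3 probe sets, Id2 was called in TLR4 null kidneys as well (0.61, adjusted p = 0.00756), so the call there depends on which probe set stands for the gene. The brightest probe set was also called there with quantile normalization (adjusted p = 0.0247), with only the compared groups in the fit (adjusted p = 0.0444) and without wild-type sham replicate 1 (adjusted p = 0.0373). In 21 of 25 alternative settings Id2 stayed uncalled in TLR4 null kidneys, with adjusted p up to 0.228.

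Id1, a direct target of BMP receptors in endothelium, varied widely among ischemic arrays. Id1 (probe set 1425895_a_at) gave 779, 688 and 1251 in TLR4 null ischemic kidneys, against 707, 678 and 708 in TLR4 null sham kidneys. It gave 807, 1282 and 1032 in wild-type ischemic kidneys, against 771, 830.2 and 777 in wild-type sham kidneys. Id3, which is often expressed together with Id1, did the same. Id3 (probe set 1416630_at) gave 552, 394 and 1421 in TLR4 null ischemic kidneys, against 453, 567 and 524 in TLR4 null sham kidneys. It gave 545, 805 and 734 in wild-type ischemic kidneys, against 448, 549 and 538 in wild-type sham kidneys. In both genes TLR4 null ischemic replicate 3 was far above the other TLR4 null ischemic arrays, sham arrays of a genotype lay closer together than ischemic ones, and the surgery groups overlapped in both genotypes. The Id1 difference was 0.32 ± 0.18 in TLR4 null kidneys (limma adjusted p = 0.248) and 0.36 ± 0.18 in wild-type kidneys (adjusted p = 0.194). The Id3 difference was 0.39 ± 0.31 in TLR4 null kidneys (adjusted p = 0.431) and 0.42 ± 0.31 in wild-type kidneys (adjusted p = 0.399). Without TLR4 null ischemic replicate 3 the TLR4 null values became 0.07 for Id1 and -0.13 for Id3, so the size of both depends on that array. Neither gene was called with it or without it (adjusted p = 0.795 for Id1 and 0.657 for Id3 without it). Since the spread is shared over the groups, that array also enters the SE of the wild-type values. Over 25 alternative settings the wild-type limma adjusted p was 0.061 to 0.534 for Id1 and 0.063 to 0.628 for Id3. The remaining family member, Id4, fell in both genotypes, at -0.66 ± 0.13 in TLR4 null and -0.81 ± 0.13 in wild-type kidneys (adjusted p = 0.00178 and 0.000403), with 367 to 516 in TLR4 null ischemic against 640.2 to 707 in TLR4 null sham kidneys, and 307 to 397 in wild-type ischemic against 584 to 607 in wild-type sham kidneys. None of the E proteins Tcf3, Tcf4 and Tcf12, which Id proteins bind, was called in either genotype, at an unadjusted p of 0.136 or more in TLR4 null and 0.287 or more in wild-type kidneys.

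**Figure D2:**
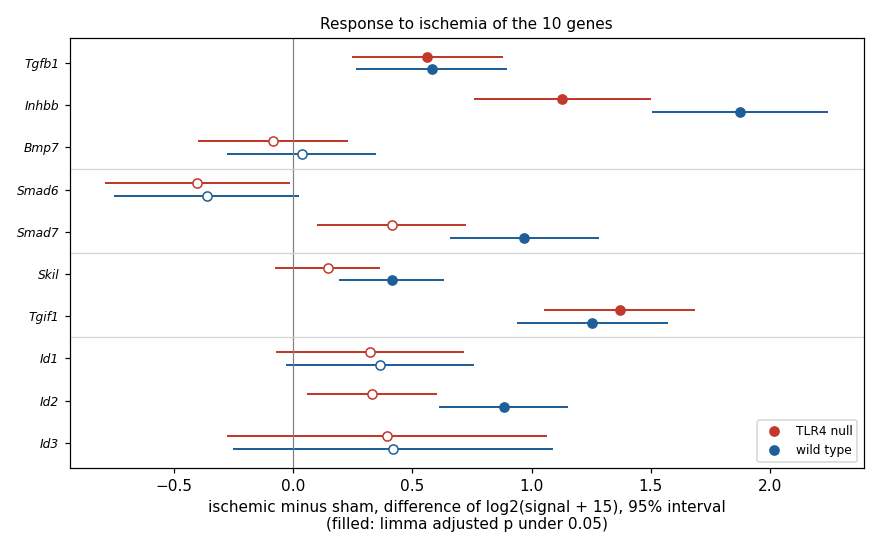
Ischemic minus sham difference of log2(signal + 15) for the 10 genes, ordered as ligands, inhibitory Smads, corepressors and Id genes, with 95% intervals (3 arrays a group); TLR4 null in red above wild type in blue, filled where the limma adjusted p was under 0.05. Inhbb (1.13 and 1.88) and Tgif1 (1.37 and 1.26) lie farthest to the right, and Smad6 alone has both values below 0.

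Whether the response to ischemia differed without TLR4 was tested as the difference of the responses. None of the 10 genes was called, and neither was any of the 14322 genes (0%). At an unadjusted p under 0.05 there were 3 of the 10, Inhbb, Id2 and Smad7, each with a smaller response in TLR4 null kidneys, beside 6.37% of all genes. The differences of the responses were -0.75 ± 0.24 for Inhbb (limma adjusted p = 0.637), -0.55 ± 0.18 for Id2 (adjusted p = 0.637) and -0.56 ± 0.20 for Smad7 (adjusted p = 0.668). Skil was at -0.27 ± 0.14 (adjusted p = 0.813), and its second probe set was past 0.05 before adjustment (-1.21 ± 0.41, adjusted p = 0.677 over all probe sets). The second Inhbb probe set gave -0.11 ± 0.71 (adjusted p = 0.992), and the second Smad7 probe set -0.45 ± 0.44 (adjusted p = 0.921). The other Id2 probe sets differ here, since 1422537_a_at gave -0.50 ± 0.29 (adjusted p = 0.849) and 1453596_at gave 0.04 ± 0.24 (adjusted p = 0.992). For Tgfb1 and Tgif1 the 95% intervals of the difference of the responses were -0.46 to 0.42 and -0.33 to 0.56, and for Id3 -0.97 to 0.92.

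Within a surgery, none of the 10 genes was called between TLR4 null and wild-type kidneys by limma. In sham kidneys 0.314% of all genes were called, and at an unadjusted p under 0.05 there were 2 of the 10, Inhbb and Id2, beside 9.35% of all genes. In ischemic kidneys 0.656% of all genes were called, and at an unadjusted p under 0.05 there was 1 of the 10, Smad7, beside 11.4% of all genes. Inhbb gave 235, 154 and 181 in TLR4 null sham kidneys, against 81.5, 104 and 119 in wild-type sham kidneys, without overlap. Its difference was 0.81 ± 0.17 (1.75-fold, limma adjusted p = 0.0619), which passed with quantile normalization (adjusted p = 0.0335) and with array weights (adjusted p = 0.0182). In the other 23 of 25 alternative settings it stayed uncalled, with adjusted p up to 0.596. The second Inhbb probe set differed by 0.39 ± 0.50 in sham (adjusted p = 0.929) and by 0.28 ± 0.50 in ischemic kidneys (adjusted p = 0.909). In ischemic kidneys probe set 1426858_at of Inhbb differed by 0.06 ± 0.17 (adjusted p = 0.931). On this probe set the gap between the responses, which did not pass, thus lay in the sham arrays. Id2 (1435176_a_at) differed by 0.33 ± 0.13 in sham (adjusted p = 0.378) and by -0.22 ± 0.13 in ischemic kidneys (adjusted p = 0.527). On that probe set the gap between the Id2 responses, which did not pass, thus had a part in each surgery. The other Id2 probe sets did not share this split. Probe set 1422537_a_at differed by 0.48 ± 0.20 in sham (adjusted p = 0.520) and by -0.01 ± 0.20 in ischemic kidneys (adjusted p = 0.993). Probe set 1453596_at differed by 0.17 ± 0.17 in sham (adjusted p = 0.896) and by 0.20 ± 0.17 in ischemic kidneys (adjusted p = 0.748). Fat cells express Inhbb. The summed signal of 4 measured fat markers (of 7) was 2797 to 5429 in TLR4 null sham and 5129.6 to 8482 in wild-type sham kidneys. All 4 had differences below 0 between genotypes in sham kidneys, from -1.22 ± 0.85 (Adipoq) to -0.83 ± 0.41 (Fabp4), the opposite sign to Inhbb, and none was called in any comparison. The part of fat in the Inhbb value was not tested. Smad7 was lower on all 3 TLR4 null ischemic arrays than on the wild-type ischemic arrays, with a difference of -0.42 ± 0.14 (adjusted p = 0.237). Arrays of the genotypes did not overlap for 2 of the 10 genes in sham kidneys, Inhbb and Id1, against 16.7% of all genes, and for 1 of the 10 in ischemic kidneys, Smad7, against 14.7% of all genes.

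**Figure D3:**
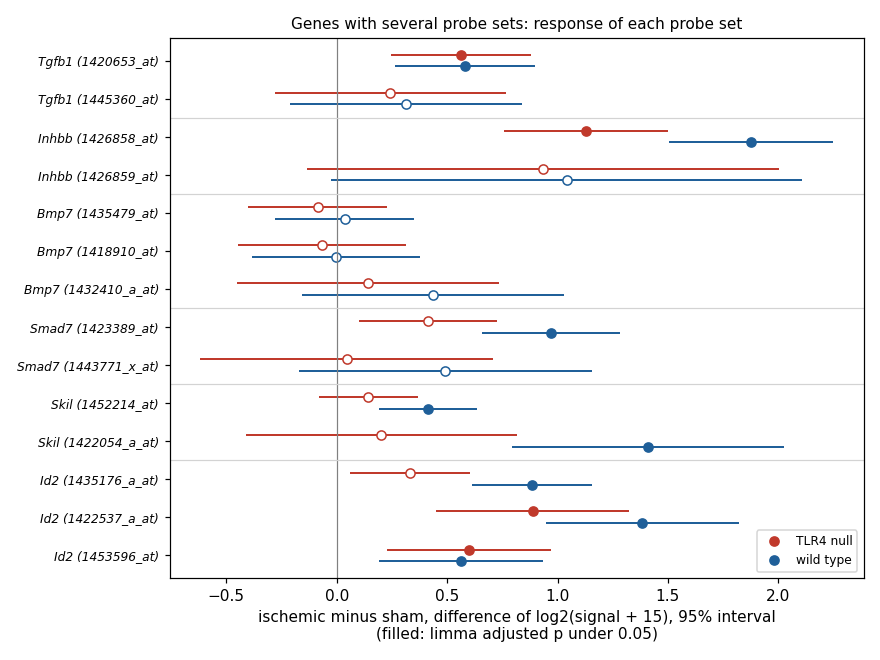
Ischemic minus sham difference of log2(signal + 15) with 95% intervals for each probe set of the 6 genes that have more than 1, TLR4 null in red above wild type in blue, filled where the limma adjusted p over all probe sets was under 0.05; the first probe set of each gene stands for it in the gene tests. The Id2 probe sets lie at 0.33, 0.89 and 0.60 in TLR4 null kidneys, and the dimmer Skil probe set at 0.20 in TLR4 null and 1.41 in wild-type kidneys.

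The genes with the most similar pattern were taken for the members called in both genotypes, by the root mean square difference of centred log2 values over the 12 arrays. For Tgif1 they were Eaf1 (0.12), an elongation factor partner, and Vcl (0.13), the cytoskeletal protein vinculin, where Tgif1 itself spread by 0.67 around its mean. For Inhbb they were Spsb2 (0.26) and Csf1 (0.31), the growth factor of macrophages, against a spread of 0.83. For Tgfb1 they were Zcchc10 (0.0900) and Ssh1 (0.11), the phosphatase slingshot, against 0.32. These values describe the 12 arrays, which share the surgery effect.

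Beyond the 10 members, 79 of 89 listed genes of the pathway were measured. In TLR4 null kidneys 14 rose and 11 fell, and in wild-type kidneys 13 rose and 7 fell. Over all genes 9.86% were called higher and 11.7% lower in TLR4 null kidneys, and 9.17% and 10.5% in wild-type kidneys. The same shares stand beside the counts of each list below. The lists too were chosen with earlier results of these data known. The median over the 79 was 0.09 in TLR4 null and 0.08 in wild-type kidneys. The difference of the responses was called for none of the 79. A call in 1 genotype alone, here and below, is therefore not a called difference between genotypes. Of 12 measured ligands, 2 rose and 2 fell in TLR4 null kidneys and 1 fell in wild-type kidneys. Bmp4, a BMP ligand, fell in both, at -0.64 ± 0.10 in TLR4 null and -0.47 ± 0.10 in wild-type kidneys (limma adjusted p = 0.000462 and 0.00464). Bmp6, a ligand known from iron regulation, was at 0.56 ± 0.15 in TLR4 null and 0.26 ± 0.15 in wild-type kidneys and passed in TLR4 null (adjusted p = 0.0152, against 0.251). Inhba, the other activin subunit, was dim, with 90.9 to 127 in TLR4 null ischemic against 17.97 to 34.1 in TLR4 null sham kidneys, and 14.6 to 129 in wild-type ischemic against 16.4 to 90.9 in wild-type sham kidneys. It rose in TLR4 null kidneys (1.73 ± 0.50, adjusted p = 0.0222) and did not pass in wild type (0.17 ± 0.50, adjusted p = 0.856), and the difference of the responses did not pass (adjusted p = 0.775). Gdf10 was also dim, with 10.98 to 35.1 in TLR4 null ischemic against 73.4 to 92.1 in TLR4 null sham kidneys, and fell there (-1.52 ± 0.37, adjusted p = 0.00841). In wild type it gave 17.0 to 57.2 in ischemic against 31.8 to 81.5 in sham kidneys and did not pass (-0.44 ± 0.37, adjusted p = 0.464).

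Of 18 measured latency and extracellular regulators, 4 rose and 3 fell in each genotype. Thbs1, thrombospondin 1, which can activate latent TGF-beta, gave 671 to 795 in TLR4 null ischemic against 181 to 279 in TLR4 null sham kidneys, and 1089.9 to 1138 in wild-type ischemic against 242 to 284 in wild-type sham kidneys. It rose by 1.69 ± 0.14 in TLR4 null and 2.06 ± 0.14 in wild-type kidneys (limma adjusted p = 8.23e-07 and 1.30e-07). Itgb6 and Itgav, which encode the integrin that activates latent TGF-beta on epithelium, rose by 1.84 ± 0.14 and 0.36 ± 0.07 in TLR4 null kidneys and by 1.59 ± 0.14 and 0.47 ± 0.07 in wild-type kidneys. Sostdc1 (USAG-1), a kidney antagonist of BMP7, fell, with 783 to 1244 in TLR4 null ischemic against 1893 to 2454 in TLR4 null sham kidneys, and 943 to 1069.9 in wild-type ischemic against 2325 to 2661 in wild-type sham kidneys (-1.02 ± 0.14 in TLR4 null and -1.28 ± 0.14 in wild type). Bmp7 itself, described above, was called in neither genotype.

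Of 13 receptors, 1 rose and 4 fell in TLR4 null kidneys, and 2 rose and 1 fell in wild-type kidneys. Tgfbr2, the type II TGF-beta receptor, rose in both, by 0.76 ± 0.11 in TLR4 null and 0.69 ± 0.11 in wild-type kidneys (limma adjusted p = 0.000133 and 0.000320). Acvr1b, a type I activin receptor, fell in both (-0.36 ± 0.10 in TLR4 null and -0.32 ± 0.10 in wild type). Bmpr2, the type II BMP receptor, gave 1105 to 1171 in TLR4 null ischemic against 1516 to 1554 in TLR4 null sham kidneys and fell (-0.42 ± 0.08, adjusted p = 0.00145), and in wild type it gave 1240.0 to 1411 against 1314 to 1478 (-0.07 ± 0.08, adjusted p = 0.576). The difference of the Bmpr2 responses did not pass (-0.35 ± 0.11, adjusted p = 0.637). The type I receptor Acvr1 was at 0.36 ± 0.14 in TLR4 null and 0.69 ± 0.14 in wild-type kidneys (adjusted p = 0.0808 and 0.00242). Of 5 measured receptor and common Smads, Smad3 and Smad1 rose in both genotypes. Smad3, which relays TGF-beta and activin, rose by 0.97 ± 0.09 in TLR4 null and 0.93 ± 0.09 in wild-type kidneys, and Smad1, which relays BMPs, by 0.62 ± 0.11 in TLR4 null and 0.48 ± 0.11 in wild-type kidneys. Smad2 (0.25 ± 0.11 in TLR4 null and 0.16 ± 0.11 in wild type) and Smad4 (0.17 ± 0.12 in TLR4 null and 0.22 ± 0.12 in wild type) did not pass.

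Of 13 other corepressors, ubiquitin ligases and feedback genes, 2 rose and 1 fell in TLR4 null kidneys and 1 rose and 1 fell in wild-type kidneys. Pmepa1, a TGF-beta target that holds back Smad2 and Smad3, rose by 0.72 ± 0.10 in TLR4 null and 0.77 ± 0.10 in wild-type kidneys (limma adjusted p = 0.000129 and 6.62e-05). The ubiquitin ligase Wwp1 fell in both (-0.38 ± 0.11 in TLR4 null and -0.49 ± 0.11 in wild type), its relative Nedd4l rose in TLR4 null kidneys (0.27 ± 0.08 in TLR4 null and 0.16 ± 0.08 in wild type), and Zeb1 passed in neither (0.26 ± 0.19 in TLR4 null and 0.48 ± 0.19 in wild type). Of 14 measured target genes, 3 rose in TLR4 null kidneys and 4 in wild-type kidneys, and none fell by limma (at an unadjusted p under 0.05, 2 in TLR4 null and 1 in wild-type kidneys were lower). Gadd45b rose by 1.78 ± 0.19 in TLR4 null and 1.74 ± 0.19 in wild-type kidneys, the cell cycle inhibitor Cdkn1a (p21) by 1.19 ± 0.16 in TLR4 null and 0.95 ± 0.16 in wild-type kidneys, and the matrix protein Tgfbi by 0.44 ± 0.10 in TLR4 null and 0.76 ± 0.10 in wild-type kidneys. Ccn2, connective tissue growth factor, was at 0.33 ± 0.13 in TLR4 null and 0.71 ± 0.13 in wild-type kidneys and passed in wild type (adjusted p = 0.00104, against 0.0804 in TLR4 null). These genes answer to other pathways as well. Between genotypes 3 of the 79 were called in sham kidneys (Col1a1, Col3a1 and Fstl1) and 4 in ischemic kidneys (Col1a1, Col3a1, Fn1 and Tgfbi), all lower in TLR4 null kidneys. Over all genes 0.314% were called in sham and 0.656% in ischemic kidneys. The fibrillar collagens Col1a1 and Col3a1 had differences of -1.83 ± 0.35 and -1.19 ± 0.23 in sham and -1.84 ± 0.35 and -1.85 ± 0.23 in ischemic kidneys, and were called in neither ischemia comparison. Tgfbi (-0.66 ± 0.10) and Fn1, fibronectin (-0.74 ± 0.14), were lower in TLR4 null ischemic than in wild-type ischemic kidneys. Those called between genotypes were singled out after their values were seen. Of the 6 fibroblast and pericyte markers, Col1a2 was called in ischemic kidneys too (-0.94 ± 0.19), and the part of fibroblast number was not tested.

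**Figure D4:**
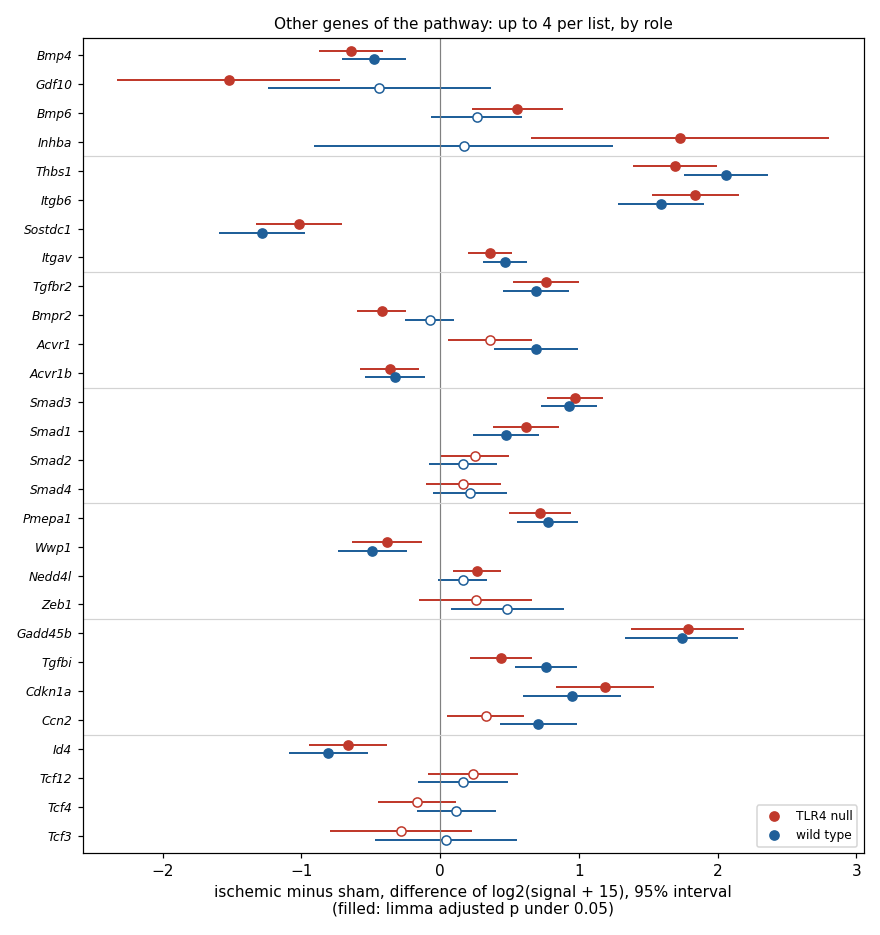
Ischemic minus sham difference of log2(signal + 15) with 95% intervals for up to 4 genes of each pathway list, grouped by grey lines into ligands, extracellular regulators, receptors, Smads, corepressors and ligases, target genes, and Id4 with the E proteins; TLR4 null in red above wild type in blue, filled where the limma adjusted p was under 0.05. Thbs1 (1.69 and 2.06), Itgb6 (1.84 and 1.59) and Gadd45b (1.78 and 1.74) lie farthest right of the genes that passed in both genotypes, and Sostdc1 (-1.02 and -1.28) is the lowest that passed in both.

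Markers of other cells differed with surgery in part. The summed signal of 5 measured neutrophil markers (of 6) was 534 to 784 in TLR4 null ischemic against 301 to 456 in TLR4 null sham kidneys, and 862 to 1369 in wild-type ischemic against 463 to 588 in wild-type sham kidneys, and 2 of the 5, S100a8 and S100a9, rose in each genotype and carry the difference in the sum. The other 3 did not pass, with Mpo at -0.12 ± 0.29, Elane at 0.11 ± 0.41 and Csf3r at -0.08 ± 0.35 in TLR4 null kidneys, and Mpo at -0.33 ± 0.29, Elane at -0.79 ± 0.41 and Csf3r at -0.22 ± 0.35 in wild-type kidneys. The summed signal of 6 fibroblast and pericyte markers was 3332 to 4499 in TLR4 null ischemic against 4168 to 4469 in TLR4 null sham kidneys, and 4068 to 5818 in wild-type ischemic against 4749 to 5471 in wild-type sham kidneys. None of 3 measured lymphocyte markers (of 7) was called. The platelet marker Pf4 was lower in TLR4 null than in wild-type kidneys in sham (-0.73 ± 0.14) and ischemic mice (-0.84 ± 0.14), and the macrophage marker C1qa in ischemic mice (-0.64 ± 0.13). No marker was at a signal of 0. The markers Itgam (3.24 to 46.2), Gp9 (4.55 to 15.5), Lep (2.00 to 55.7), Cd3e (14.8 to 71.1), Cd3g (2.78 to 55.5) and Cd4 (6.16 to 20.5) were too dim to be tested. The part of these cells in the values of the 10 genes was not tested.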

How the data were processed

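Whole-kidney RNA of 12 mice was measured on 12 Mouse Genome 430 2.0 arrays. The deposited intensity values are MAS5 signals, per the submitters' processing notes. Its version and scaling target were not given in the sources used here. The values run from 0.0377 to 31317.3 on a linear scale, with the same trimmed mean (250.0, middle 96%) on every array, and this scaling was kept.

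Log2(signal + 15) was tested, 15 being the rounded 20th percentile. Probe sets had to exceed the 40th percentile of the array on 3 or more arrays, which 30326 did. By the platform annotation 34958 probe sets name 1 gene (34754 matched to the RefSeq gene table by Entrez identifier, whose symbol was used), 932 several and 9160 none. The brightest probe set on average stood for its gene (14322 genes). limma 3.58.1 in R 4.3.3 (lmFit, eBayes with a trend) fitted 4 group means to all 12 arrays, two-sided, with Benjamini-Hochberg adjustment over all genes, or over all probe sets for single probe sets. Genotype comparisons and the difference of responses share arrays with the ischemia comparisons. Figures used matplotlib 3.10.9 in Python 3.11.15.

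The members and lists were chosen with earlier results of these data known. All 10 members are named, with up to 4 genes a list by smallest p in the ischemia comparisons and the 2 most similar genes of members called in both. Other named genes were chosen after their values were seen. Alternatives were other normalizations, pseudocounts of 1 and 60, filters, probe set rules, eBayes without a trend, array weights, fits of the compared groups, a replicate block, each array left out and a fat covariate added after seeing the data. The fit was tested on simulated data with changes put into the wild-type ischemic arrays. It recovered 26.6% of log2 changes of 0.5, 70.3% of 1 and 95.6% of 2. Of its 1353 calls 73 were false. Fewer genes were changed in each simulated round than were called in the data. The number of arrays limits precision. Replicate numbers did not pair arrays (deviations of same-numbered arrays correlated at -0.06 to 0.10 over genes).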

Additional observations from a re-analysis of the deposited data

How the results depend on the processing

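Over 25 alternatives, 12 of them leaving out 1 array, 1228 of 1240 single values of the 10 genes kept their side of the threshold, 4 called values lost it, 8 others passed it, and none of the called values changed sign. Of the 10 genes, 3 were called after ischemia in TLR4 null kidneys, with 2 to 5 when single arrays were left out. The 5 came without wild-type sham replicate 1, where Smad7 and Id2 passed. In wild-type kidneys the count was 5 to 6 under all 25. Between genotypes in sham kidneys it was 0 as reported and 1 (Inhbb) with quantile normalization or array weights. In ischemic kidneys, and for the difference of the responses, it was 0 under every alternative that was run. The pathway count ranged over 18 to 26 (TLR4 null) and 16 to 23 (wild type). With the replicate block the counts of the 10 genes were as reported, 3 in TLR4 null and 6 in wild-type kidneys. Over all genes the block gave 2923 calls in TLR4 null (3088 without it), 2723 in wild type (2814), 33 between genotypes in sham (45) and 61 in ischemic kidneys (94). Median scaling kept the sign of all 10 genes but split the calls over all genes into 1098 higher and 919 lower in TLR4 null kidneys (1412 and 1676 as reported) and 1240 higher and 549 lower in wild-type kidneys (1313 and 1501). A fit of only the compared groups was not run for the difference of the responses, which needs all 4. The cause was not tested. Dim probe sets, such as the second ones of Inhbb and Skil, had wide intervals.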

Other observations

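Of the 3 TLR4 null ischemic kidneys, replicate 3 had the highest signals for Id1 (1251), Id2 (5881), Id3 (1421), Smad7 (439), Skil (1088) and Bmp7 (379), and the lowest for Tgfb1 (206.0), Inhbb (370.2) and Smad6 (89.4). Without it Tgfb1, Inhbb and Tgif1 were still the members called in TLR4 null kidneys, and the TLR4 null response was -0.23 for Smad6, 0.29 for Smad7 and 0.10 for Skil. Any array of 3 is the highest or the lowest for many genes, and how often replicate 3 was so over all genes was not counted.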
